A study of Rattus norvegicus with 6 samples.

Results

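The proteasome subunit genes are the 46 of 35362 listed genes whose symbol is Psm followed by a letter from a to g and a number, with the interferon-induced Psmb8 and Psmb9 left out. The rule that picks them uses symbols and no measured value, but it was chosen with earlier results of these data known. They were compared between 2 populations of INS-1 cells, a rat insulinoma line that secretes insulin, with 3 libraries of mRNA in each. Both populations carried a Flag-tagged menin mutant delivered by a pMX-puro retrovirus. The mutants differ at 1 serine of menin, a nuclear scaffold protein encoded by Men1: S487A has alanine there, a residue that takes no phosphate, and S487D has the acidic residue aspartate, a common stand-in for phosphoserine. The labels name no deletion of the cells' own Men1, and cells with wild-type menin or with no transgene were not analysed here. Every direction is therefore S487D relative to S487A, and the mutant cannot be told apart from the transduced population that carries it. Whether the 3 libraries of a population stem from separate cultures is not stated in the labels, so p-values here reflect only the spread between libraries, which may be technical.

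The proteasome is the protease that degrades proteins tagged with chains of ubiquitin. Its 20S core particle is a barrel of 2 outer alpha rings and 2 inner beta rings, and the cutting sites lie inside, on Psmb5, Psmb6 and Psmb7. The 19S regulatory particle caps the barrel: its base holds the Psmc ATPases that unfold substrates, and its lid removes ubiquitin before a substrate enters. Dedicated chaperones assemble both particles, and other activators or an inhibitor can bind the ends of the core. In beta cells, which make secretory proteins in bulk, misfolded proinsulin is drawn out of the endoplasmic reticulum and degraded by this route.

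Levels are given as RPKM, reads per kilobase of gene length and per megaread assigned. The depth of the libraries, computed from RPKM and gene length, was 9444801 to 10867549 assigned reads. The share of ribosomal RNA was 0.930 to 2.49% for S487A libraries and 2.15 to 4.50% for S487D libraries. The defining markers of beta cells were read in every library, with the 7 markers summing to 8681 to 9301 RPKM in S487A and 20690 to 21811 in S487D. Markers of fibroblasts, immune, endothelial, acinar and germ cells summed to at most 1.30 RPKM per list and library. Of all 30 cell type markers, 11 were listed at 0 in every library, which need not mean that they were silent. The ductal markers summed to 208 to 226 RPKM in S487A and 80.8 to 84.7 in S487D, nearly all from Krt7, a keratin, while Krt19 and Sox9 stayed under 1 RPKM on average. Of the 7 beta cell markers 5 rose and 2 fell, beside 20.1% higher and 24.3% lower over all genes tested. Ins1 alone was read at 4683 RPKM on average in S487A and 16700 in S487D. The 2 that fell were Chga (3527.6 and 3223.5 RPKM) and Nkx6-1 (10.1 and 4.42 RPKM). The part of these markers and of ribosomal RNA in the results on proteasome genes was not tested, beyond the count of 33 members that rose (against 30) with ribosomal RNA left out. In bulk RNA, fewer cells of a type and less RNA per cell cannot be told apart.

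Proteasome genes were higher in S487D across the core and the regulatory particle, by small amounts. Of the 44 members tested, 30 rose, 1 fell and 13 met no threshold (limma on log2(RPKM + 1), Benjamini-Hochberg adjusted p under 0.05 over all 12527 genes tested). Of all genes tested, 20.1% were higher and 24.3% lower by the same rule, against 68.2% and 2.27% of the members. The rises ran from 1.08-fold to 1.33-fold, and 39 of the 44 log2 changes were positive. In 33 members every S487D library lay above every S487A library, which held for 25% of all genes tested, and in 1 member every one lay below (29.5% of all genes tested). Folds and log2 changes here are on the log2(RPKM + 1) scale.

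The members changed by a narrow range of amounts. Their median log2 change was 0.22, with an interquartile range of 0.12 to 0.27, while that of all genes tested was -0.01, with a range of -0.20 to 0.14. The median fold of the 30 members that rose was 1.19, close to the 1.21 of the 2523 genes that rose in all. The members are shorter and more abundant than most genes tested, with a median length of 1351 against 2729 bases and a median level of 104 against 11.4 RPKM. Of the 1068 tested genes under 2000 bases with a mean of at least 50 RPKM, 45.8% were higher and 14% lower, with a median log2 change of 0.12. Of the 28 members in that range, 22 were higher and 1 lower, or 78.6% higher, with a median of 0.23. The part of length and level in the result was not tested beyond this count.

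**Figure D1:**
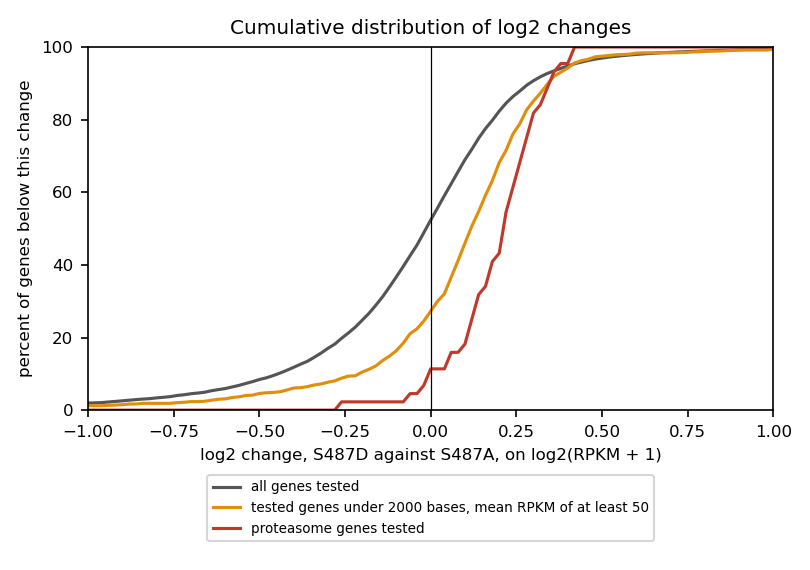
Cumulative percent of genes (vertical axis) below each log2 change of S487D against S487A (horizontal axis) for the 44 tested proteasome genes, all 12527 tested genes, and the 1068 tested genes under 2000 bases with a mean of at least 50 RPKM. The proteasome curve rises steeply around its median of 0.22. It lies to the right of the other curves there, whose medians are -0.01 and 0.12. Near the upper end it crosses them. Below 0.42 lie 100% of proteasome genes, 95.4% of all genes tested and 95.6% of the 1068.

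Together the 46 members took 0.678, 0.680 and 0.708% of assigned reads in the S487A libraries and 0.820, 0.807 and 0.796% in S487D. The groups did not overlap in this share. Their summed level was 5162 ± 159 RPKM in S487A and 6070 ± 101 in S487D (SD, n = 3 in each), a ratio of 1.18. The alpha and beta rings of the core summed to 2694 ± 98.8 RPKM in S487A and 3185 ± 68.3 in S487D, and the 17 genes of the 19S base and lid to 1865 ± 40.6 and 2233 ± 24.1. The ratios for core and regulatory particle were nearly equal, at 1.18 and 1.2. Within the core they were 1.13 for the alpha ring and 1.23 for the beta ring.

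**Figure D2:**
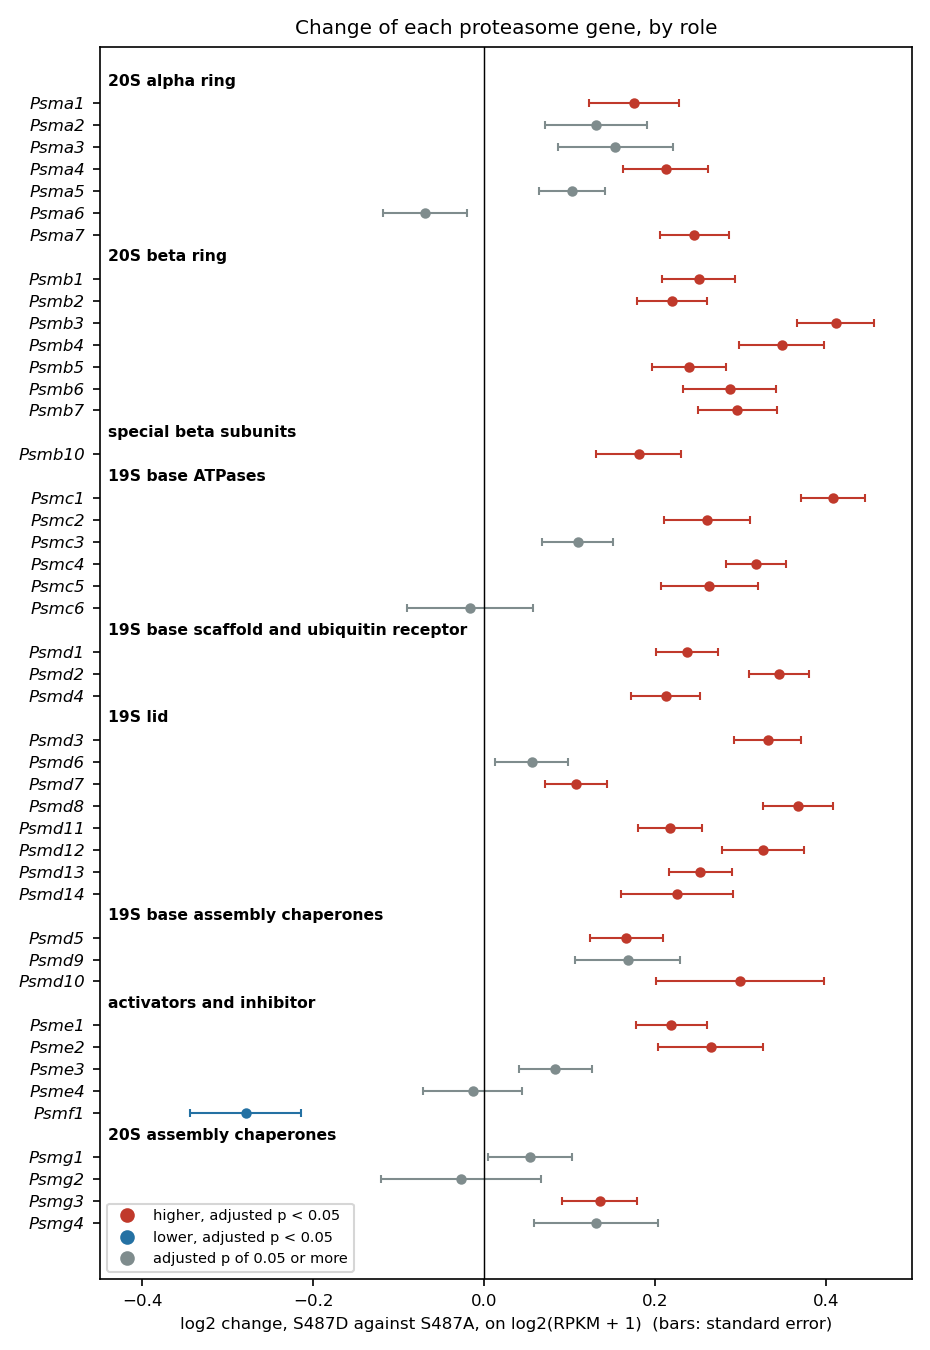
Log2 change of S487D against S487A with its standard error for the 44 tested proteasome genes (points and bars), in rows grouped by role and coloured by call. The 7 genes of the beta ring all lie between 0.22 and 0.41, Psmf1 alone is called lower at -0.28, and Psmc6, Psme4 and Psmg2 lie next to 0.

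The promoters of 4 members are shown because their genes mark the range of response: the largest rises in the beta ring, the ATPases and the lid, and the one fall. They are the 250 bases before the annotated start in RefSeq, build GRCr8, at chr10:83193537-83193786 (plus strand), chr6:125122247-125122496 (plus), chr1:93608690-93608939 (minus) and chr3:160720916-160721165 (minus), read on the gene's strand. Capitals mark the matches on either strand to GGGCGG (GC box), CCGGAAG (ETS factors), CCAAT, TGACNNNGC (core of the antioxidant response element, which Nfe2l1 and Nfe2l2 bind), CGCNTGCGC (nuclear respiratory factor 1), TGACGTCA (cAMP response element) and TATAAA.
Psmb3: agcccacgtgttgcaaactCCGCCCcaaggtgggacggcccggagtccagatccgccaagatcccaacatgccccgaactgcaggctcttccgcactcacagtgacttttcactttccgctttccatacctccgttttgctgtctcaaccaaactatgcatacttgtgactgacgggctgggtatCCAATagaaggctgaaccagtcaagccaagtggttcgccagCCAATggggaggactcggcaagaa
Psmc1: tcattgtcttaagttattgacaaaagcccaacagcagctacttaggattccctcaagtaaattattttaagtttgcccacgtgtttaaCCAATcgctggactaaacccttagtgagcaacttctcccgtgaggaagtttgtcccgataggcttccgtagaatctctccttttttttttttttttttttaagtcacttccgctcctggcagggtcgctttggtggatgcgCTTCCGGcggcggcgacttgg
Psmd8: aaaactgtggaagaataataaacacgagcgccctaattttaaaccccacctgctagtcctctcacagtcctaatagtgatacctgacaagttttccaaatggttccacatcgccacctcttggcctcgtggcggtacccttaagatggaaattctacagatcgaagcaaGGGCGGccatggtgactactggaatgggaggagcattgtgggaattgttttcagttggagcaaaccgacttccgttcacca
Psmf1: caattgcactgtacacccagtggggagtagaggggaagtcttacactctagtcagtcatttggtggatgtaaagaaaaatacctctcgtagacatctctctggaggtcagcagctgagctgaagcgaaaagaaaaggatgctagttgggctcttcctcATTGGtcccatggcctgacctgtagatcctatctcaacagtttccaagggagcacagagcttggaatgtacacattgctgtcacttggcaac

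Psmb3 has a pair of CCAAT boxes and a GC box, Psmc1 a CCAAT box and an ETS match close to the start, Psmd8 a GC box, and Psmf1 a CCAAT box on the opposite strand. RefSeq windows matched 41 members by symbol; Psma7, Psmb11, Psmd6, Psmd12 and Psmd14 had no entry. A GC box was in 29 of the 41 windows (70.7%), against 61.0% of the windows of 8499 genes tested and 30.5% of all 33469 windows. The ETS letters were in 12 (29.3%), against 15.8% and 7.27%, and CCAAT in 19 (46.3%), against 35.6% and 34.0%. TGACNNNGC was in 7 (17.1%), against 12.8% and 10.1%. These were Psma3, Psmb2, Psmb5, Psmb6, Psmd1, Psmd9 and Psme4, of which 4 rose. CGCNTGCGC was in 5 (12.2%), against 12.8% and 5.09%, and TATAAA in 4 (9.76%), against 5.66% and 12.9%. TGACGTCA was in the Psmb2 window alone (2.44%), against 3.09% and 1.59%. Members with and without the ETS letters had nearly equal median log2 changes, 0.22 and 0.21. For GC boxes these were 0.21 with and 0.23 without, for CCAAT 0.18 and 0.24, and for TGACNNNGC 0.22 and 0.21. A match is a description of the letters in the window.

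All 7 genes of the beta ring rose, with a median log2 change of 0.29. Psmb5 carries the chymotrypsin-like site, the target of the drug bortezomib. It was read at 139, 146 and 151 RPKM in the S487A libraries and at 173, 166 and 176 RPKM in the S487D libraries. The groups did not overlap, and the rise of 1.18-fold passed the test (log2 change 0.24, SE 0.0432, adjusted p = 0.00168). Psmb6, which carries the caspase-like site, was read at 69.8, 77.6 and 79.5 RPKM in the S487A libraries and at 88.8, 93.0 and 95.3 RPKM in the S487D libraries (log2 change 0.29, SE 0.0544, adjusted p = 0.00226). Psmb7, with the trypsin-like site, was read at 189, 193 and 206 RPKM in the S487A libraries and at 248, 243 and 231 RPKM in the S487D libraries (log2 change 0.30, SE 0.0458, adjusted p = 6.76e-04). All 3 active-site genes were thus higher in each S487D library than in any S487A library.

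Among the beta subunits without a cutting site, Psmb3 rose the most of any member. It was read at 125, 127 and 135 RPKM in the S487A libraries and at 167, 179 and 169 RPKM in the S487D libraries, a rise of 1.33-fold (log2 change 0.41, SE 0.0448, adjusted p = 7.41e-05), and 4.89% of all genes tested had a larger log2 change. Psmb4, a late partner in assembly of the ring, was read at 397, 413 and 438 RPKM in the S487A libraries and at 526, 556 and 506 RPKM in the S487D libraries (log2 change 0.35, SE 0.0498, adjusted p = 4.24e-04). Psmb1 and Psmb2, the remaining genes of the ring, rose 1.19-fold and 1.16-fold. Psmb2 had one of the higher levels of the ring, at 335 ± 13.2 and 390.4 ± 8.68 RPKM. The Psmb5 row overlaps another listed gene, RGD1565222, and reads from the shared stretch cannot be told apart.

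The alpha ring, which forms the gate of the core, moved less evenly. Of its 7 tested genes, 3 rose, 0 fell and 4 met no threshold, with a median log2 change of 0.15. Psma7 was the most abundant member of all. It was read at 464, 468 and 500.2 RPKM in the S487A libraries and at 569.8, 563 and 565 RPKM in the S487D libraries, and the rise of 1.19-fold passed the test (log2 change 0.25, SE 0.0404, adjusted p = 9.79e-04). The 20 tested genes next to Psma7 on chromosome 3 had a median log2 change of 0.19, the highest of any member's neighbours; the part of the surroundings in its rise was not tested. Psma4 was read at 86.4, 79.2 and 86.0 RPKM in the S487A libraries and at 98.9, 101 and 92.3 RPKM in the S487D libraries (log2 change 0.21, SE 0.0497, adjusted p = 0.00697), without overlap of the groups. Psma1 was read at 181, 172 and 186 RPKM in the S487A libraries and at 218, 198 and 193 RPKM in the S487D libraries (log2 change 0.18, SE 0.0522, adjusted p = 0.0222), also without overlap. The Psma1 call was lost without S487A replicate 2 (adjusted p = 0.0774) or S487D replicate 1 (0.0836), and after quantile normalization (0.0842).

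Psma6 was the 1 tested alpha gene whose mean was lower in S487D, at 97.7, 86.6 and 89.8 RPKM in the S487A libraries and at 88.3, 87.3 and 85.2 RPKM in the S487D libraries, with overlapping groups (log2 change -0.07, SE 0.0488, adjusted p = 0.277), and the log2 change was -0.02 without S487A replicate 1. Psma2, Psma3 and Psma5 had log2 changes of 0.13, 0.15 and 0.10 and adjusted p-values of 0.106, 0.0928 and 0.0573. Without S487D replicate 3, the library in which all 3 were lowest within S487D, they passed the test (log2 changes of 0.19, 0.23 and 0.13, adjusted p = 0.0234, 0.0133 and 0.0459). Other omissions lowered the values: the log2 change was 0.09 for Psma2 without S487A replicate 2 and 0.09 for Psma3 without S487D replicate 1. Psma8, an alpha subunit of male germ cells, was not tested. It had 2 to 6 reads per library (0.106 to 0.325 RPKM). Of the 3 germ cell genes, Ddx4 and Dazl were listed at 0 in every library, and Sycp3 was read in every library, at 0.888, 0.410 and 1.30 RPKM in S487A and at 0.435, 0.374 and 0.0944 in S487D.

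**Figure D3:**
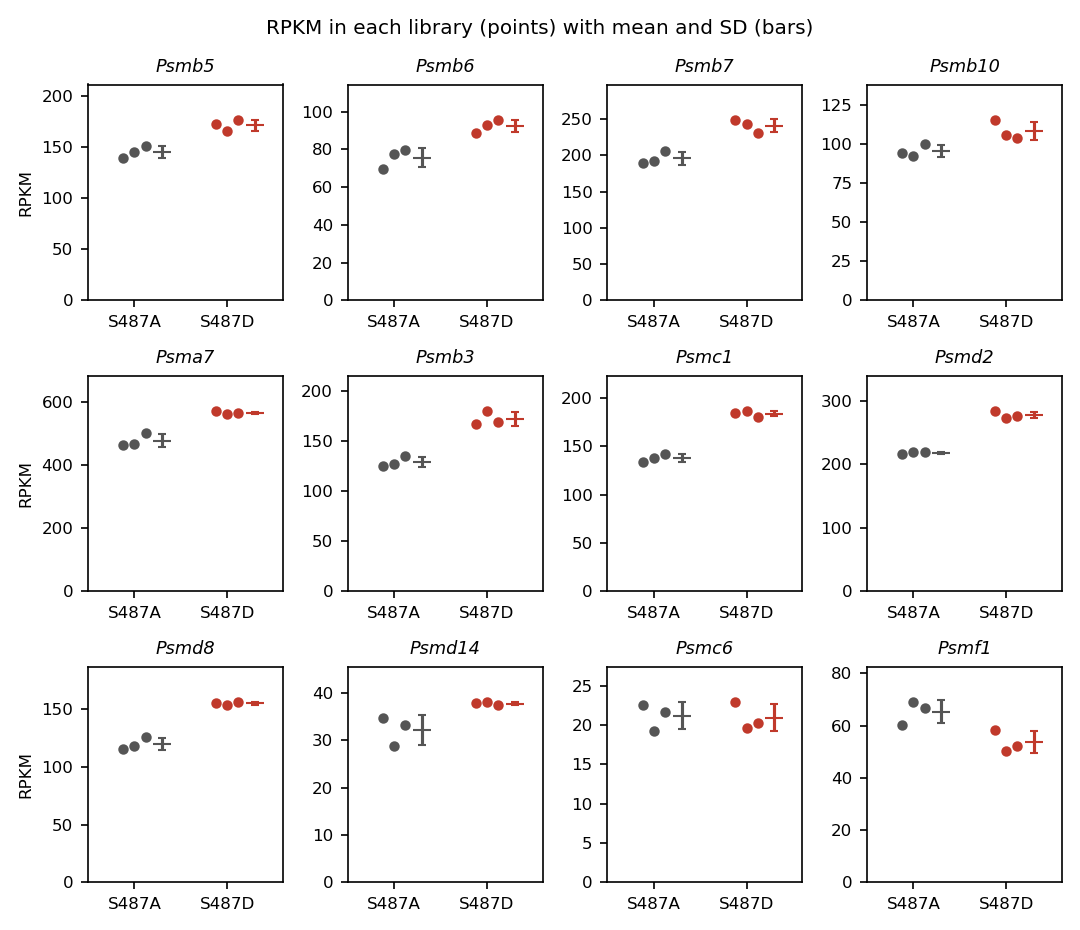
RPKM (vertical axes, from 0) of 12 proteasome genes in the 3 S487A and 3 S487D libraries, each point a library, with the mean and SD of each group beside them. The S487D points lie above the S487A points in 10 panels, overlap them for Psmc6 (19.2 to 22.6 RPKM in S487A, 19.6 to 22.9 in S487D) and lie below them for Psmf1.

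In the base of the regulatory particle, 4 of the 6 ATPase genes rose and 2 met no threshold (median log2 change 0.26). These ATPases form the ring that unfolds substrates and opens the gate of the core. Psmc1 was read at 134, 138 and 142 RPKM in the S487A libraries and at 184, 186 and 181 RPKM in the S487D libraries, a rise of 1.33-fold (log2 change 0.41, SE 0.0378, adjusted p = 2.54e-05), the smallest p of all members. The 20 tested genes around it had a median log2 change of -0.21, the lowest of any member's neighbours; the part of the surroundings in its change was not tested either. Psmc4 was read at 107, 108 and 105 RPKM in the S487A libraries and at 134, 132 and 133 RPKM in the S487D libraries (log2 change 0.32, SE 0.0349, adjusted p = 7.73e-05). Psmc2 was read at 131, 129 and 145 RPKM in the S487A libraries and at 167, 163 and 156 RPKM in the S487D libraries (log2 change 0.26, SE 0.0502, adjusted p = 0.00246). The groups were apart for these 3 genes, and Psmc5 also rose, with a log2 change of 0.26. Psmc3, the most abundant ATPase gene, was read at 248, 264 and 266 RPKM in the S487A libraries and at 288, 272 and 278 RPKM in the S487D libraries and missed the threshold although the groups did not overlap (log2 change 0.11, adjusted p = 0.0581). It passed with ribosomal RNA left out (0.0160), with voom on reads (0.0220) and after median centring (0.0102). Psmc6, the least abundant, was read at 22.6, 19.2 and 21.7 RPKM in the S487A libraries and at 22.9, 19.6 and 20.2 RPKM in the S487D libraries, with overlapping groups (log2 change -0.02, SE 0.0733, adjusted p = 0.873).

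The 3 other genes of the base rose. Psmd2 and Psmd1 encode the large scaffold subunits on which ubiquitin receptors and shuttle proteins dock. Psmd2 was read at 216, 219 and 219 RPKM in the S487A libraries and at 283, 273 and 276 RPKM in the S487D libraries, a rise of 1.27-fold (log2 change 0.34, SE 0.0347, adjusted p = 4.36e-05). Its S487A values lay within 3 RPKM of each other, far from those of S487D. Psmd1 was read at 55.5, 54.0 and 54.9 RPKM in the S487A libraries and at 65.0, 64.7 and 64.6 RPKM in the S487D libraries (log2 change 0.24, SE 0.0365, adjusted p = 6.61e-04). Psmd4, an intrinsic ubiquitin receptor, was read at 125, 125 and 132 RPKM in the S487A libraries and at 149, 150.3 and 142 RPKM in the S487D libraries (log2 change 0.21, SE 0.0407, adjusted p = 0.00239). Neither gene's groups overlapped.

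Of the 8 lid genes, 7 rose and 1 met no threshold, with a median log2 change of 0.24. Psmd8 was read at 116, 118 and 126 RPKM in the S487A libraries and at 156, 153 and 156 RPKM in the S487D libraries, a rise of 1.29-fold (log2 change 0.37, SE 0.0411, adjusted p = 8.82e-05). Psmd3 was read at 132, 137 and 140.0 RPKM in the S487A libraries and at 168, 170.1 and 177 RPKM in the S487D libraries (log2 change 0.33, SE 0.0393, adjusted p = 1.30e-04) and Psmd13 at 127, 128 and 129 RPKM in the S487A libraries and at 157, 149 and 153 RPKM in the S487D libraries (log2 change 0.25, SE 0.0363, adjusted p = 4.35e-04). In each of these structural subunits of the lid the groups were apart. Psmd13 overlaps Sirt3 and Psmd8 overlaps Ggn, both on the opposite strand, and their reads cannot be told apart without strand. Psmd14, the metalloprotease that cleaves ubiquitin chains off substrates, was read at 34.7, 28.7 and 33.3 RPKM in the S487A libraries and at 37.8, 37.9 and 37.4 RPKM in the S487D libraries, a rise of 1.17-fold (log2 change 0.23, SE 0.0652, adjusted p = 0.0194). Its S487A libraries were widely spread: without S487A replicate 2 the log2 change was 0.15. The call was lost without S487D replicate 1 (adjusted p = 0.0514) or 2 (0.0538).

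Psmd11 and Psmd12, further lid subunits, rose 1.16-fold and 1.25-fold. Psmd7, which pairs with Psmd14, had the smallest rise that passed the test, 1.08-fold (adjusted p = 0.0378). Leaving out S487A replicate 2 or 3 or S487D replicate 1, 2 or 3 ended that call, with adjusted p-values from 0.0765 to 0.106, as did quantile normalization (0.328) and a replicate block (0.0854). Psmd6 was read at 53.2 ± 2.04 and 55.3 ± 1.17 RPKM on average in S487A and S487D and met no threshold (log2 change 0.06, adjusted p = 0.327); without S487A replicate 2 the log2 change was 0.03.

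Levels of genes whose proteins share one complex differed far more between genes than between the groups. In S487A the 7 tested alpha ring genes ran from 22.3 RPKM (Psma3) to 477 (Psma7), a ratio of 21.4, and the beta ring genes from 75.6 (Psmb6) to 416 (Psmb4), a ratio of 5.50. The ATPase genes ran from 21.2 (Psmc6) to 259 RPKM (Psmc3), and the lid genes from 32.2 (Psmd14) to 136 (Psmd3). These are levels per length, and the listed length of Psma3, 1967 bases, is the longest of the tested alpha genes. The order of the lowest and highest gene within each ring was the same in S487D. The median level in S487A was 113 RPKM for the members that rose and 40.4 RPKM for those that met no threshold.

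**Figure D4:**
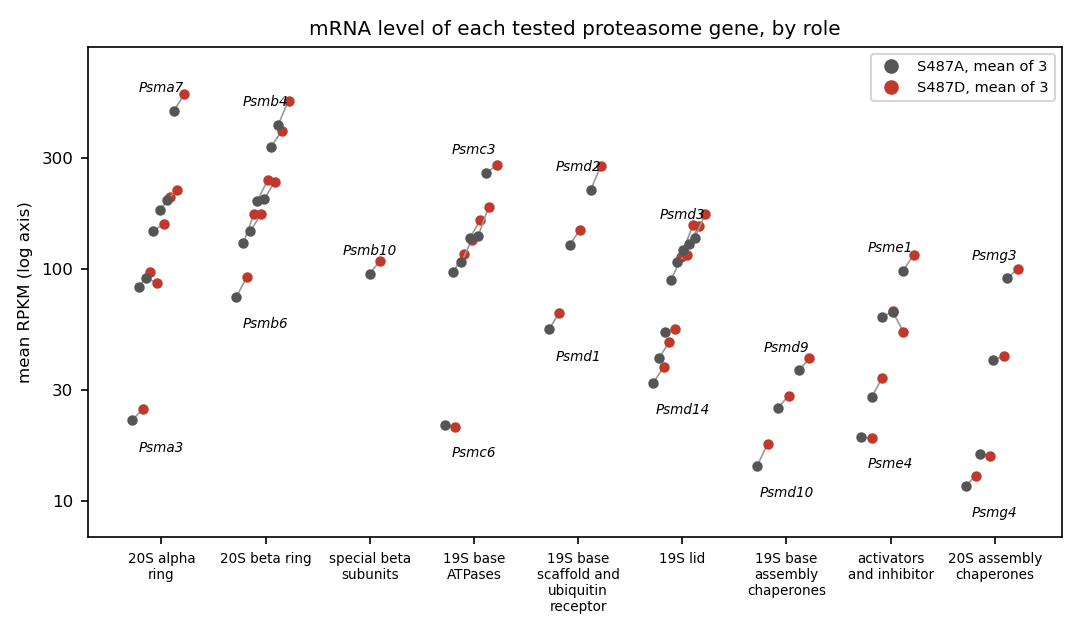
Mean RPKM (vertical log axis) of each of the 44 tested proteasome genes in S487A and S487D (points joined by a line, 3 libraries each), by role. Genes of one ring are spread widely, from 22.3 to 477 RPKM in the alpha ring of S487A, while the lines joining the groups are short.

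Assembly chaperones, which leave the particle once it is built, gave 3 of 7 genes that rose, 0 that fell and 4 that met no threshold. Their median level was 25.2 RPKM in S487A. Psmd5, a chaperone of the base ATPases, was read at 25.5, 25.6 and 24.6 RPKM in the S487A libraries and at 28.7, 27.8 and 28.7 RPKM in the S487D libraries (log2 change 0.17, SE 0.0431, adjusted p = 0.0117). Psmd10, or gankyrin, which binds the ATPase Psmc4, was read at 15.6, 12.02 and 15.1 RPKM in the S487A libraries and at 18.0, 15.9 and 19.2 RPKM in the S487D libraries (log2 change 0.30, SE 0.0981, adjusted p = 0.0331). Its values rested on as few as 70 reads. Without S487A replicate 2 its log2 change was 0.19 (adjusted p = 0.0895), and the call was also lost without S487D replicate 1 (0.0852) or 3 (0.102). Psmd9, a chaperone of another pair of ATPases, was just short of the threshold (log2 change 0.17, adjusted p = 0.0514) and passed it without S487A replicate 3 (0.0206) or S487D replicate 3 (0.0316).

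For the chaperones of the core, Psmg3 was read at 87.2, 89.6 and 96.2 RPKM in the S487A libraries and at 100.1, 99.7 and 99.9 RPKM in the S487D libraries (log2 change 0.13, SE 0.0437, adjusted p = 0.0313), without overlap of the groups. Its call was lost when any library but S487A replicate 3 was left out (adjusted p from 0.0699 to 0.0906). Psmg4, its partner, was read at 11.7 ± 0.780 and 12.9 ± 1.09 RPKM in S487A and S487D (log2 change 0.13, SE 0.0725, adjusted p = 0.173), with a log2 change of 0.07 without S487D replicate 2. Psmg1 and Psmg2, which work as a pair on the alpha ring, had log2 changes of 0.05 and -0.03 (adjusted p = 0.41 and 0.833). Leaving out S487D replicate 2 or 3 moved Psmg1 to 0.01 or 0.10. Psmg2 overlaps Ptpn2 on the opposite strand.

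Psmf1 was the one member that fell. It encodes PI31, which inhibits the isolated core in vitro and has also been linked to proteasome transport. It was read at 60.4, 68.9 and 66.7 RPKM in the S487A libraries and at 58.3, 50.4 and 52.3 RPKM in the S487D libraries. Every S487D library lay below every S487A library, with the closest pair at 58.3 and 60.4 RPKM (log2 change -0.28, SE 0.0651, adjusted p = 0.00686). The call held in each of the 16 alternatives run, with adjusted p-values from 2.04e-04 to 0.0292.

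Among the activators, Psme1 and Psme2, whose proteins form the interferon-inducible PA28 cap, both rose. Psme1 was read at 96.7, 96.2 and 102 RPKM in the S487A libraries and at 118, 114 and 111 RPKM in the S487D libraries (log2 change 0.22, SE 0.0411, adjusted p = 0.00214) and Psme2 at 25.7, 29.1 and 29.7 RPKM in the S487A libraries and at 35.4, 32.5 and 34.0 RPKM in the S487D libraries (log2 change 0.26, SE 0.0614, adjusted p = 0.00663). In neither gene did the groups overlap. Psme1 was read at 3.50 ± 0.241 times the level of Psme2 in S487A and 3.37 ± 0.130 times in S487D, per length. Psme3, which forms the nuclear PA28 gamma cap, was read at 61.8 ± 2.03 and 65.5 ± 2.01 RPKM in S487A and S487D (log2 change 0.08, SE 0.0427, adjusted p = 0.146). Psme4, which encodes the nuclear activator PA200, was read at 20.1, 18.6 and 17.8 RPKM in the S487A libraries and at 19.5, 17.9 and 18.6 RPKM in the S487D libraries, with overlapping groups (log2 change -0.01, SE 0.0578, adjusted p = 0.868).

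Psmb10 replaces Psmb7 in the immunoproteasome, a form of the core induced by interferon that favours peptides for antigen presentation. It was read at 93.9, 92.4 and 99.7 RPKM in the S487A libraries and at 115, 106 and 104 RPKM in the S487D libraries, a rise of 1.13-fold (log2 change 0.18, SE 0.0497, adjusted p = 0.0153). The groups did not overlap, but the call was lost without S487A replicate 2 (adjusted p = 0.0543) or S487D replicate 1 (0.0624). Psmb8 and Psmb9, which replace Psmb5 and Psmb6 and are not members here, went apart from each other. Psmb8 was read at 27.3, 28.2 and 25.3 RPKM in the S487A libraries and at 33.0, 33.2 and 32.7 RPKM in the S487D libraries (log2 change 0.28, SE 0.0491, adjusted p = 0.00142), above S487A in each library. Psmb9 was read at 79.1, 77.9 and 78.6 RPKM in the S487A libraries and at 69.8, 71.4 and 68.4 RPKM in the S487D libraries (log2 change -0.17, SE 0.0369, adjusted p = 0.00521), below S487A in each library. Both lie in the major histocompatibility region of chromosome 20, at chr20:3990809-3993772 and chr20:3973424-3978845 (rn6).

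Per length, Psmb10 stood at 0.486 ± 0.00917 of Psmb7 in S487A and 0.449 ± 0.0141 in S487D, and Psmb8 at 0.186 ± 0.0158 and 0.192 ± 0.00737 of Psmb5. The ratio of Psmb9 to Psmb6 was 1.13, 1.00 and 0.988 in the S487A libraries and 0.786, 0.768 and 0.718 in S487D. Psmb9 was thus read at about the level of Psmb6 in S487A and below it in each S487D library. Of 15 tested genes of the interferon response (Psmb8 and Psmb9 included), 1 rose, 7 fell and 7 met no threshold (median log2 change -0.15). Over all genes tested, 20.1% were higher and 24.3% lower. The 1 interferon gene that rose was Psmb8 itself, and Psmb9 was among the 7 that fell. Psmb11, the subunit of the thymus cortex, was not tested: it had 3 to 8 reads per library. Foxn1, a gene of thymus epithelium, was listed at 0 in every library.

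Of the 31 tested genes of the ubiquitin-proteasome pathway outside the Psm series, 14 rose, 2 fell and 15 met no threshold, with a median log2 change of 0.10, beside 20.1% of all genes tested that were higher and 24.3% that were lower. Among the tested genes under 2000 bases with a mean of at least 50 RPKM, 45.8% were higher, with a median of 0.12. The list was not limited to that range, and the part of length and level in its count was not tested. Adrm1, a ubiquitin receptor of the regulatory particle, was read at 119, 124 and 128 RPKM in the S487A libraries and at 155, 156 and 156 RPKM in the S487D libraries, a rise of 1.26-fold (log2 change 0.33, SE 0.0386, adjusted p = 1.2e-04). It lies near Psma7, at chr3:175548060-175552943, and the part of the surroundings in its rise was not tested. Shfm1, a small lid subunit, was read at 206 ± 7.66 and 217 ± 11.0 RPKM in S487A and S487D (log2 change 0.07, SE 0.0472, adjusted p = 0.231). Of 4 tested genes of the p97 unfoldase and its cofactors, which pull substrates from membranes and complexes, 3 rose and Faf2 met no threshold. Vcp, the unfoldase itself, was read at 308, 309 and 316 RPKM in the S487A libraries and at 359.7, 365 and 358 RPKM in the S487D libraries (log2 change 0.21, SE 0.0343, adjusted p = 8.66e-04). Its cofactor Ufd1l was read at 50.5, 47.5 and 51.0 RPKM in the S487A libraries and at 67.4, 64.4 and 62.1 RPKM in the S487D libraries (log2 change 0.37, SE 0.0467, adjusted p = 1.84e-04). Uba1, the enzyme that activates ubiquitin, was read at 97.7, 101 and 105 RPKM in the S487A libraries and at 122, 119 and 130.2 RPKM in the S487D libraries (log2 change 0.29, SE 0.0457, adjusted p = 7.66e-04). In each of these called genes the groups were apart.

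The 2 genes of the list that fell were Ubqln2 and Ube3a. Ubqln2, a shuttle that carries ubiquitinated proteins to the proteasome, was read at 165, 163 and 161 RPKM in the S487A libraries and at 137, 125 and 133 RPKM in the S487D libraries (log2 change -0.31, SE 0.0425, adjusted p = 3.52e-04), while its relatives Ubqln1 and Ubqln4 rose 1.12-fold and 1.10-fold. Ube3a, a ubiquitin ligase that binds the proteasome, was read at 8.78, 8.19 and 7.69 RPKM in the S487A libraries and at 6.64, 6.74 and 6.37 RPKM in the S487D libraries (log2 change -0.28, SE 0.0655, adjusted p = 0.00674). Nfe2l1 encodes the factor that raises transcription of subunit genes when proteasome activity is short, and much of its control is on the protein. Its mRNA was read at 61.0, 61.8 and 63.0 RPKM in the S487A libraries and at 61.5, 60.0 and 60.8 RPKM in the S487D libraries, with overlapping groups (log2 change -0.03, SE 0.0371, adjusted p = 0.58), and the sign turned after median centring. Nfe2l2, a related factor of the oxidative stress response, was read at 17.8, 14.8 and 16.1 RPKM in the S487A libraries and at 18.7, 17.4 and 16.5 RPKM in the S487D libraries (log2 change 0.11, SE 0.0732, adjusted p = 0.271), also with overlap, and its log2 change was 0.04 without S487A replicate 2 and 0.17 without S487A replicate 1. Pomp, a maturation factor, and the ubiquitin gene Rps27a were listed at 0 in every library and were not tested. Every cell uses these genes, so a listed 0 in this table need not mean that a gene was silent. The same holds for the 11 cell type markers listed at 0 in every library, Ddx4, Dazl and Foxn1 among them.

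**Figure D5:**
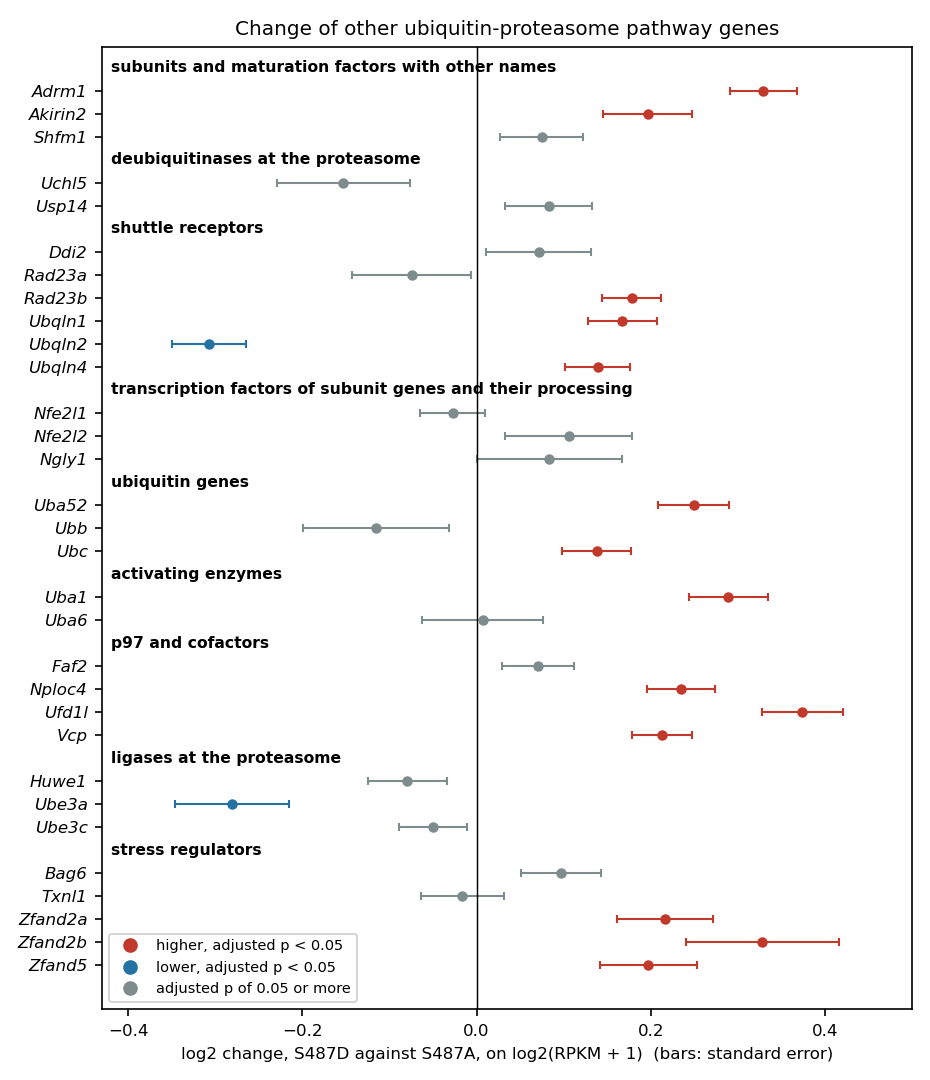
Log2 change of S487D against S487A with its standard error for the 31 tested genes of the ubiquitin-proteasome list (points and bars), grouped by role and coloured by call. Ufd1l and Adrm1 lie farthest right among called genes at 0.37 and 0.33, Ubqln2 and Ube3a are called lower at -0.31 and -0.28, and Nfe2l1 lies at -0.03.

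The members are scattered over the genome, but some lie close together. In the deposited coordinates (rn6), Psmb3 lies at chr10:85646646-85653729, Psmb5 at chr15:33259039-33263634, Psmc1 at chr6:124123283-124135644, Psmd8 at chr1:88116811-88123643 and Psmf1 at chr3:147238111-147263275. Those members that rose lay on 14 chromosomes, and the 10 tested genes on each side of them had median log2 changes from -0.21 to 0.19, with a median of -0.01. The neighbours of Psmf1 had a median of -0.02. Psme1 and Psme2, which both rose, lie at chr15:34256071-34258947 and chr15:34265552-34269851. Psmb4 and Psmd4, which both rose as well, lie at chr2:196043618-196046311 and chr2:196198303-196207568. Psmb11, which was not tested, lies near Psmb5 at chr15:33267413-33273587. The part of shared surroundings in these rises was not tested. The rows of 10 tested members overlap another listed gene, and 8 of these members rose. Proteasome genes also have processed pseudogenes, whose reads the counting could split; the one named in the table, Psme1-ps1, reached at most 0.137 RPKM.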

How the data were processed

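Trizol-extracted RNA was enriched for mRNA and made into TruSeq libraries, per the labels' protocols; the kit is not stated there to mark strand. The submitters' processing notes name bcl2fastq 2.17, cutadapt, TopHat2 2.0.13 and the rn6 build (Rnor_6.0). For counter and annotation, nothing is given in the sources used here. The authors deposited RPKM per gene and library, with position, strand and length, per the file headers. Multiplying RPKM by length gave whole reads (within 0.05 of a read) in 100% of values of up to 2000 reads, and 3 reads in a gene of 1 kb are 0.276 to 0.318 RPKM. Intervals of counting error were not used.

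Sample titles gave the groups. The model was limma 3.58.1 in R 4.3.3 on log2(RPKM + 1), two-sided, with an intensity trend, no covariate and Benjamini-Hochberg adjustment over the 12527 genes that reached RPKM 1 in 3 or more libraries. In simulated libraries of these depths (12480 genes, S487D against S487A), 24.5% of 1.2-fold and 84% of 1.5-fold changes were recovered. Their spread was set at a fixed value and not taken from these libraries. Far fewer genes were changed than were called here, so these shares do not describe the members. Python 3.11.15 with numpy 2.4.6, pandas 2.3.3 and matplotlib 3.10.9 was used for tables and figures.

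The members, their roles and the lists (37 ubiquitin-proteasome, 20 interferon and 30 marker genes) were chosen with earlier results of these data known, as were the range of length and level, the motifs and the promoters shown. A longer form of the nuclear respiratory factor 1 motif was searched first, and a shorter one is given. Every library's value is given for Psmb5, Psmb6, Psmb7, Psmb10, Psmd14, Psme4, Psmf1, Psmb8, Psmb9, Nfe2l1 and Nfe2l2, for up to 3 called members of smallest p per role and direction, and for up to 4 such ubiquitin-proteasome genes per direction. Psma6, Psmc3 and Psmc6 were added after their values were seen. Alternatives were pseudocounts of 0.1 and 0.01, no filter, a minimum of RPKM 5, quantile normalization, centring on the median, no trend, a replicate block, voom on reads, each library left out and, chosen after seeing the data, ribosomal RNA left out.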

Additional observations from a re-analysis of the deposited data

How the results depend on the processing

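The count of members that rose was 24 to 33 in every alternative but median centring, which gave 37, against 30; 1 fell in each of the 16 alternatives. Leaving out single libraries gave 24 to 31. Of the 30 that rose, 24 stayed called in all alternatives that were run and 6 (Psma1, Psmb10, Psmd7, Psmd10, Psmd14 and Psmg3) lost the call in at least 1, and none turned sign. Of the 13 that met no threshold, 7 were called higher in at least 1 alternative: all 7 (Psma2, Psma3, Psma5, Psmc3, Psmd6, Psmd9 and Psme3) after median centring. The median log2 change of the members was 0.22, and it was 0.28 after median centring and 0.17 after quantile normalization, within 0.19 to 0.24 when a library was left out. Median centring raised the share of higher calls among all called genes from 45.3 to 58.9%, quantile normalization to 55.4%; the median log2 change of all genes tested was 0.04 and 0.03 there. Without a filter the calls of Psma1, Psmd10, Psmd14 and Psmg3 were lost (adjusted p = 0.0624, 0.0968, 0.0544 and 0.0561), and without a trend those of Psma1, Psmd7, Psmd10 and Psmg3 (0.0578, 0.0969, 0.0582 and 0.0761). Psmd10 was lost with voom (0.0574), and Psmg3 after quantile normalization (0.0609) and with the replicate block (0.0517). Calls over all genes were 4603 to 4851 with a library left out, against 5564. In the ubiquitin-proteasome list 12 to 14 rose and 2 to 3 fell when a library was left out.

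Signs turned in members near 0 that met no threshold. Psmc6 had log2 changes of 0.041 after median centring, 0.0046 after quantile normalization and 0.0013 with ribosomal RNA left out, and -0.081 to 0.029 when a library was left out. Psme4 had 0.044, 0.014 and 0.0042 in the same alternatives and -0.051 to 0.031. Psmg2 had 0.030 and 0.019 after median centring and quantile normalization and -0.10 to 0.064 when a library was left out. Nfe2l1 had 0.030 after median centring. The cause was not tested.

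With the replicate number as a block, 28 members rose and 1 fell. The labels do not say what the numbers stand for, and same-numbered libraries did not deviate together (correlations of deviations 0.0035, -0.060 and 0.010 across genes), so no pairing was assumed. No library correlated best with the library of its own number in the other group. Changes of 1.2-fold were often missed in the simulated libraries. Their spread was set and not measured here, and the share recovered there does not describe the members. Members that met no threshold are not shown to be level.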
